A study of Mus musculus with 9 samples.

Results

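The signals of 9 genes of cardiac potassium channels were compared in infarcted mouse hearts. Kcnq1, Kcnh2, Kcnd2, Kcnd3, Kcnj2, Kcnj3 and Kcna5 encode pore-forming subunits, and Kcne1 and Kcnip2 encode accessory subunits. They were chosen by gene symbol as cardiac ion channel genes and make up 9 of the 19505 genes measured. Although the choice was framed as potassium and sodium channels, none of the 9 encodes a sodium channel, so sodium channel genes are described as related genes only. Each of the 9 was represented by 1 row of the array.

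RNA was taken from the peri-infarct region, the heart tissue that borders the scar, 4 weeks after an infarct made by tying the left anterior descending coronary artery. The hosts were female SCID mice aged 80 to 100 days, a strain without functional T and B lymphocytes that tolerates foreign cells. Hearts fell into 3 groups of 3: saline controls, hearts given cardiomyocytes grown from induced pluripotent stem cells (the iCM group), and hearts given exosomes, which are vesicles shed by cells and were here precipitated from cultures of those cardiomyocytes (the iCM-Ex group). Each heart was one biological replicate on one Clariom S array, and the values are the authors' log2 signals, on which a difference of 1 is a doubling. No uninjured heart was analysed here, so every group carried the infarct, and the species of the stem cells is not given in the sources used here. In a piece of bulk tissue, fewer cells of a type and less RNA per cell cannot be told apart.

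Potassium channels end the cardiac action potential by letting potassium leave the cell. Kcnq1 with Kcne1 carries the slow delayed rectifier current and Kcnh2 the rapid one, and inherited loss of either current in people causes long QT syndrome. In the mouse ventricle, repolarisation is fast and leans on the transient outward current of Kcnd2 and Kcnd3, whose channels need the calcium-binding subunit Kcnip2, and on the ultrarapid delayed rectifier of Kcna5. Kcnj2 holds the resting potential, and Kcnj3, best known from atrial cells, forms a channel opened by acetylcholine.

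Kcnh2 and Kcna5 had lower signals on all 3 iCM-Ex arrays than on any other array. The sequence before the transcription start is shown for this pair because their iCM-Ex values stood apart from both other groups. RefSeq windows on GRCm38.p6 were given for 7 of the 9 genes, and Kcnq1 and Kcne1 have no entry in that table. Both genes lie on the minus strand, and each run holds the 250 bases before the start, 5′ to 3′, at chr5:24329592-24329841 for Kcnh2 and chr6:126535556-126535805 for Kcna5. The Kcnh2 start in the table lies 22093 bases inside the outer end of the gene, so other transcripts of the gene reach further out. Capitals mark GGGCGG, the GC box bound by Sp1-like factors, and CCACCC, the CACC box bound by Krüppel-like factors, each on either strand, where they read CCGCCC and GGGTGG.
Kcnh2: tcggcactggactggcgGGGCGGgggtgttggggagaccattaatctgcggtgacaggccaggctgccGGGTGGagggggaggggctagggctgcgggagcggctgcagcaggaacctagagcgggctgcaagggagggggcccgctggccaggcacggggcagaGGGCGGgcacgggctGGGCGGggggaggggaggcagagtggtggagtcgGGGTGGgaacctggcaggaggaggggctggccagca
Kcna5: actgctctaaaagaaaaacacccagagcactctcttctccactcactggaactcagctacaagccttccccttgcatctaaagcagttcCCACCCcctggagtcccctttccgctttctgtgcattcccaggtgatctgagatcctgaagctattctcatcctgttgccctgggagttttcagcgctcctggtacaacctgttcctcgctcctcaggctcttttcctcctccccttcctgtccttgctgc
The Kcnh2 window was 73.6% G or C and held 3 GC boxes and 2 CACC boxes, while that of Kcna5 was 53.2% G or C and held 0 and 1. The median over all 32851 windows of this length was 52.4% G or C. GGGCGG was in 4 of the 7 windows and in 32.7% of all windows, CCACCC in 5 of 7 and 28.1%, and CACGTG, the E-box, in 1 of 7 (Kcnj2) and 6.02%. The marked motifs do not overlap in these windows. They are matches of letters, not binding sites.

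Some arrays stood apart from others of their group, and 3 carried markers of tissue other than heart muscle. The 9 lung epithelium markers averaged 12.33 in iCM replicate 1, 8.97 in iCM-Ex replicate 3 and 6.09 in iCM replicate 2, against 4.30 to 4.90 elsewhere. The 8 fast skeletal muscle markers averaged 13.04 in iCM replicate 2, against 4.79 to 6.03 on the other arrays. Control separation, the median positive minus the median negative control probe set, ranged over 3.27 to 3.56 for saline, 2.47 to 3.21 for iCM and 3.63 to 4.01 for iCM-Ex, with no overlap between groups. Median negative controls averaged 5.29, 5.31 and 4.86 in the same order, and signals near them carry little information on size. The 13 cardiomyocyte markers averaged between 16.45 and 17.37 on saline arrays, between 15.76 and 17.73 on iCM arrays and between 16.38 and 16.72 on iCM-Ex arrays, far above the negative controls on every array.

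Across the 9 genes, the moderated F test over the 3 groups called Kcnq1 alone, and no comparison of 2 groups called any of them. Calls were made with limma on all 19505 genes, at an adjusted p (Benjamini-Hochberg) under 0.05. The F test called 3.32% of all genes. At an unadjusted p under 0.05, iCM against saline gave 1 of the 9 genes, iCM-Ex against saline 3 and iCM-Ex against iCM 2. These counts stand beside 3.67%, 0.349% and 1.07% of all genes called, and 20.5%, 15.2% and 14.5% at an unadjusted p under 0.05, for the same 3 comparisons. Both comparisons with saline use the same control arrays, so their values are set side by side and not counted as separate evidence.

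**Figure D1:**
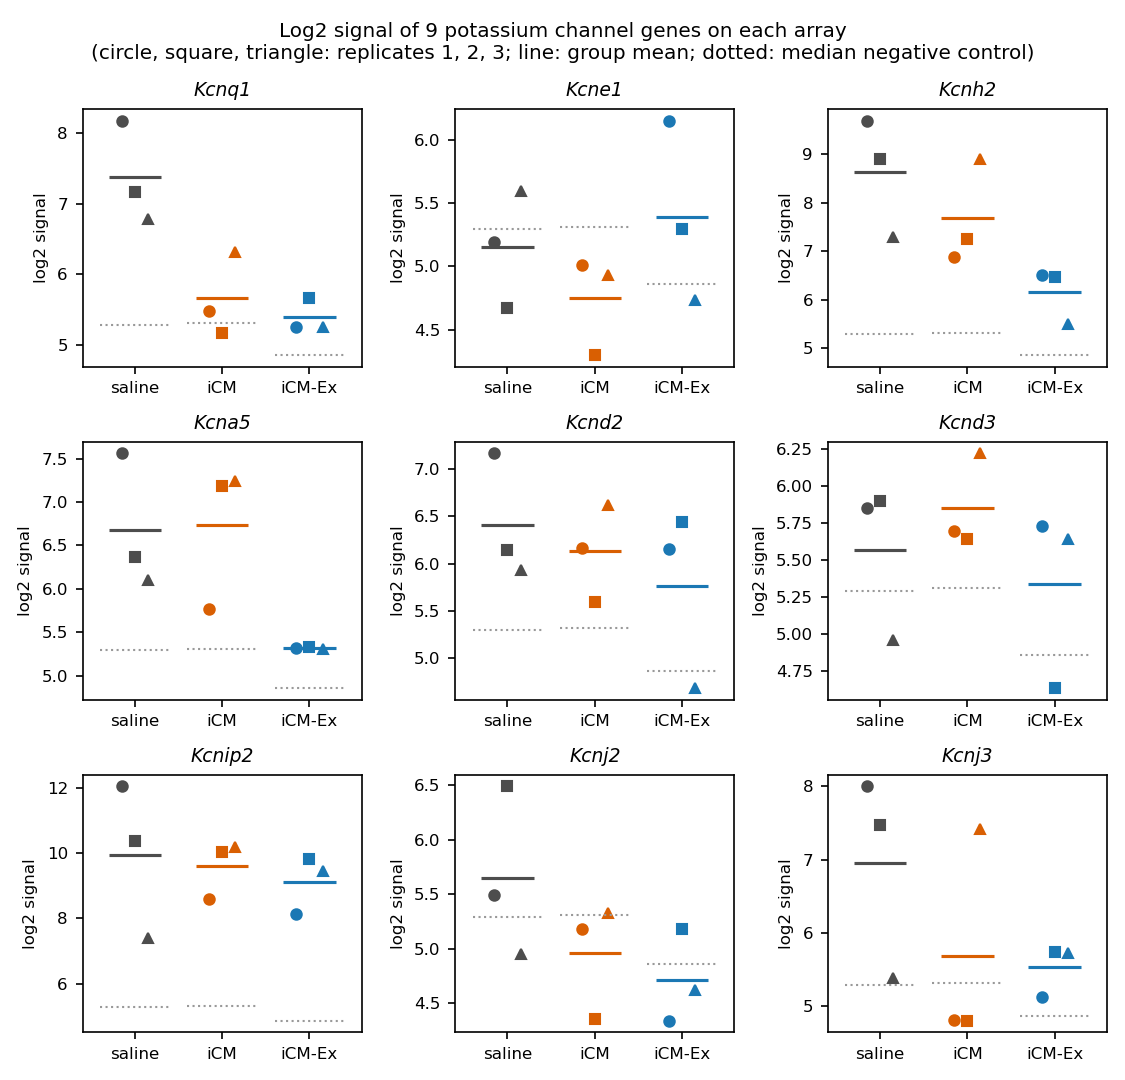
Log2 signal of each of the 9 channel genes on each of the 9 arrays, 1 panel per gene with its own vertical scale. Points are arrays (circle, square and triangle for replicates 1, 2 and 3), horizontal lines are group means, and dotted lines are the group's mean of the median negative controls. Kcnq1 is above 6.7 on all saline arrays and at most 6.32 on the others, and the 3 iCM-Ex points of Kcna5 nearly coincide at 5.31 to 5.33.

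Kcnq1 (Entrez Gene 16535), the pore of the slow delayed rectifier, differed among the groups. Its log2 signal was 8.18, 7.17 and 6.78 on the saline arrays, 5.48, 5.17 and 6.32 on the iCM arrays and 5.26, 5.67 and 5.26 on the iCM-Ex arrays. All 3 saline arrays lay above all 6 others, and the iCM and iCM-Ex arrays overlapped. Group means were 7.38 ± 0.72, 5.66 ± 0.59 and 5.40 ± 0.24 (SD, n = 3 each), and the limma F test gave an adjusted p of 0.0464. The treated means lay close to the negative controls, and iCM replicate 2 lay below its own, so the size of the gap is uncertain.

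The pairwise tests of Kcnq1 fell short of the threshold. The iCM mean differed from saline by -1.72 on the log2 scale, or 3.29-fold (SE 0.42, 95% interval -2.64 to -0.80), with a limma adjusted p of 0.0506. The iCM-Ex mean differed from saline by -1.98, or 3.95-fold (SE 0.42, 95% interval -2.90 to -1.06), with an adjusted p of 0.0817. Between iCM-Ex and iCM the difference was -0.26, with an interval of -1.18 to 0.66 and an adjusted p of 0.857. The F call did not hold under 12 of 17 other settings. With each array centred on its cardiomyocyte markers the differences from saline were -1.33 and -1.47 and the F adjusted p was 0.581, and without the 3 arrays that carried other tissue they were -1.06, resting on iCM replicate 3 alone, and -1.91, with an F adjusted p of 0.29.

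Kcne1 (16509), the small subunit that slows the opening of Kcnq1 channels, gave signals around the negative controls in every group. It read 5.19, 4.67 and 5.59 in saline, 5.01, 4.30 and 4.93 in iCM and 6.15, 5.29 and 4.73 in iCM-Ex, and 5 of the 9 arrays lay below their own negative control median. The groups overlapped. Differences were -0.40 for iCM against saline and 0.24 for iCM-Ex against saline, with limma adjusted p of 0.624 and 0.829. The 95% intervals, -1.31 to 0.50 and -0.66 to 1.15, leave room for changes of either sign.

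Kcnh2 (16511), the pore of the rapid delayed rectifier, had its lowest signals in iCM-Ex. It read 9.70, 8.91 and 7.29 in saline, 6.88, 7.26 and 8.90 in iCM and 6.52, 6.47 and 5.49 in iCM-Ex. The iCM-Ex arrays lay below all 6 others, while saline and iCM overlapped, with saline replicate 3 and iCM replicates 1 and 2 at like values. The means were 8.63 ± 1.23, 7.68 ± 1.08 and 6.16 ± 0.58 (SD, n = 3 each), and no array lay below its negative controls.

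For Kcnh2 the difference of iCM-Ex from saline was -2.48, or 5.56-fold (SE 0.67, 95% interval -3.95 to -1.0), the greatest of the 9 genes in any comparison, with a limma p of 0.00383 and an adjusted p of 0.126. Against iCM it was -1.52, or 2.87-fold (interval -3.00 to -0.04), with an adjusted p of 0.329. The iCM mean differed from saline by -0.95 (interval -2.43 to 0.52), with an adjusted p of 0.455. Saline replicate 3 weighed on these values: without it the adjusted p for iCM-Ex against saline was 0.0541, at a difference of -3.15. Without the 3 arrays that carried other tissue, the difference of iCM from saline was 0.27, resting on a single iCM array, and that of iCM-Ex from saline was -2.14. With arrays centred on cardiomyocyte markers, the difference of iCM-Ex from saline was -1.97, with an adjusted p of 0.202.

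Kcna5 (16493), the ultrarapid delayed rectifier of mouse ventricle, was also lowest in iCM-Ex. Signals were 7.56, 6.37 and 6.10 in saline, 5.77, 7.18 and 7.24 in iCM and 5.32, 5.33 and 5.31 in iCM-Ex. Every iCM-Ex array lay below every other array, and saline and iCM overlapped around means of 6.68 ± 0.77 and 6.73 ± 0.83. The iCM-Ex mean of 5.32 ± 0.01 stood above the negative controls of that group, which averaged 4.86 and reached 4.95 at most. It lay close to them, as the treated means of Kcnq1 did, so the size of the gap to the other groups is uncertain. The narrow spread of the 3 iCM-Ex values is their SD only; the test pooled the spread of all groups.

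The Kcna5 difference of iCM-Ex was -1.36 against saline (2.56-fold, SE 0.47, 95% interval -2.40 to -0.32, adjusted p of 0.212 by limma) and -1.41 against iCM (2.66-fold, interval -2.45 to -0.37, adjusted p of 0.184). Between iCM and saline it was 0.06, with an interval of -0.99 to 1.10 and an adjusted p of 0.963. Of the 9 genes, iCM-Ex arrays lay wholly below saline for Kcnq1, Kcnh2 and Kcna5, and wholly below iCM for Kcnh2 and Kcna5. Over all genes this held for 9.53% and 10.0%, and iCM arrays lay wholly below saline for 10.2% of all genes and for 1 of the 9. Negative controls were also lower in iCM-Ex and control separation was wider. Since control separation did not overlap between groups, its part cannot be told apart from that of treatment for any of these genes, also where it is a covariate. With control separation as a covariate, the iCM-Ex differences of Kcna5 were -0.94 against saline and -0.37 against iCM (limma adjusted p of 0.421 and 0.96), while those of Kcnh2 were -2.47 and -1.51 (0.212 and 0.882). With arrays centred on cardiomyocyte markers, Kcna5 differed by -0.85 from saline (adjusted p of 0.782) and by -1.30 from iCM (0.853).

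**Figure D2:**
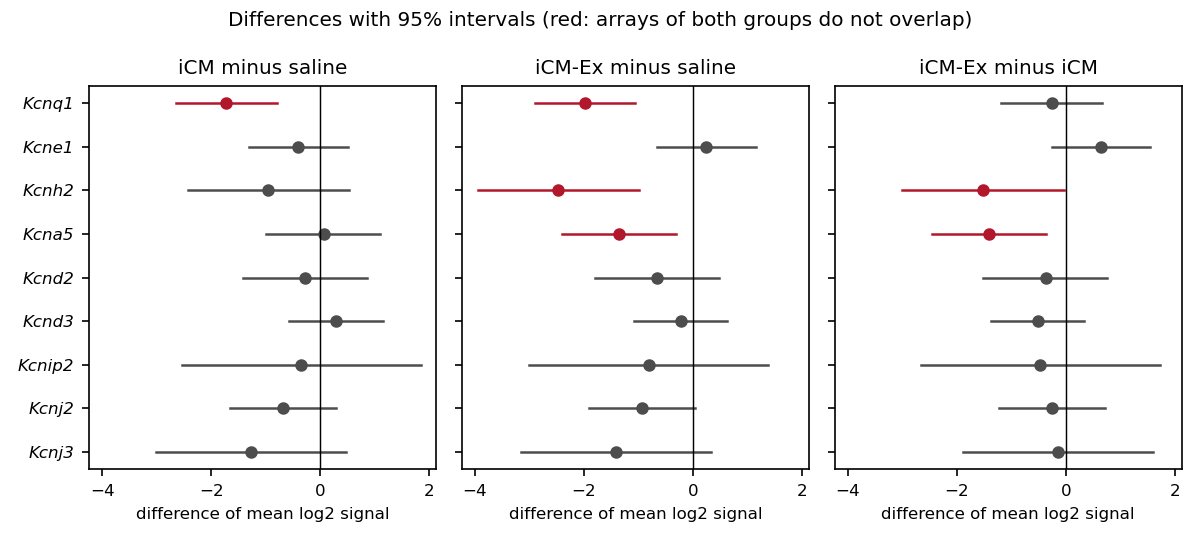
Difference of mean log2 signal between groups for each of the 9 genes, with 95% intervals from the moderated limma fit, 1 panel per comparison. Red marks genes whose arrays do not overlap between the groups: Kcnq1 in the first panel, Kcnq1, Kcnh2 and Kcna5 in the second and Kcnh2 and Kcna5 in the third.

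The genes of the transient outward current showed no shift that stood clear of their spread. Kcnip2 (80906), its accessory subunit, varied most within a group: it read 12.05, 10.37 and 7.41 in saline, 8.59, 10.02 and 10.18 in iCM and 8.12, 9.82 and 9.45 in iCM-Ex. The saline arrays alone spanned the values of both other groups. Its pooled SD within groups was 1.54, against a median of 0.45 over all genes. Means were 9.95 ± 2.35, 9.60 ± 0.87 and 9.13 ± 0.90, and differences from saline were -0.35 (95% interval -2.54 to 1.84) and -0.81 (interval -3.01 to 1.38). Limma adjusted p were 0.881 and 0.757. Intervals this wide hold changes of more than 3-fold either way for iCM against saline. Without saline replicate 3 the differences from saline were -1.62 and -2.08, with adjusted p of 0.251 and 0.179.

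Kcnd2 (16508), a pore of the same current, read 7.17, 6.14 and 5.93 in saline, 6.17, 5.59 and 6.62 in iCM and 6.15, 6.44 and 4.68 in iCM-Ex. Kcnd3 (56543), the other pore, read 5.85, 5.90 and 4.96, then 5.70, 5.64 and 6.22, then 5.73, 4.64 and 5.64. In both genes every pair of groups overlapped. Differences from saline were -0.28 and -0.66 for Kcnd2 and 0.28 and -0.23 for Kcnd3 in iCM and iCM-Ex, and limma adjusted p ran from 0.599 to 0.826. The 95% intervals reached -1.79 for Kcnd2 and 1.14 for Kcnd3.

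The inward rectifier genes were lower on average in both treated groups, without passing the test. Kcnj2 (16518) read 5.49, 6.49 and 4.95 in saline, 5.18, 4.36 and 5.33 in iCM and 4.34, 5.18 and 4.62 in iCM-Ex. Its treated means, 4.96 ± 0.52 and 4.71 ± 0.43, lay below the negative controls of their groups, so no size is read from them. Against saline, limma gave adjusted p of 0.412 for iCM and 0.345 for iCM-Ex.

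Kcnj3 (16519) read 8.0, 7.47 and 5.38 in saline, 4.81, 4.80 and 7.42 in iCM and 5.12, 5.74 and 5.73 in iCM-Ex. Saline replicates 1 and 2 and iCM replicate 3 were high, and the other 6 arrays lay at 5.74 or below. Differences from saline were -1.27 (95% interval -3.01 to 0.47) and -1.42 (interval -3.16 to 0.32), with limma adjusted p of 0.396 and 0.429. The 8 atrial markers averaged 8.53, 8.39 and 7.90 on those 3 high arrays and 7.98 to 8.43 on the others. They did not move as one: the atrial myosin light chain Myl7 read 5.47, 4.27 and 3.93 there and 4.02 to 6.51 elsewhere. Sln read 5.27, 5.20 and 4.28 against 5.16 to 5.70, Dkk3 8.57, 10.0 and 9.51 against 9.17 to 11.66, and Myl4 7.64, 8.31 and 8.20 against 7.67 to 9.78. The atrial growth factor gene Bmp10 read 5.68, 4.45 and 3.48 there and at most 3.76 elsewhere, but lay below the negative control median on 8 of the 9 arrays. The channel gene Kcnk3 read 7.55, 6.27 and 5.89 against at most 6.24. Median negative controls were 4.76 to 5.56, and the part of atrial tissue in the Kcnj3 signal was not tested. The partner subunit gene of Kcnj3, Kcnj5, is itself on the atrial list and was named outside the rule after its values were seen. It read 8.21, 8.73 and 8.68 on the same arrays and 7.13 to 8.43 on the rest.

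Within the saline and iCM groups, the 9 genes tended to be high or low on the same arrays, and less clearly so within iCM-Ex. Relative to each gene's mean over 9 arrays, they averaged 1.31, 0.68 and -0.33 on the saline arrays, -0.42, -0.34 and 0.64 in iCM and -0.52, -0.31 and -0.72 in iCM-Ex. Saline replicate 1 was the highest saline array for 6 of the 9 genes, saline replicate 3 the lowest for 8, and iCM replicate 3 the highest iCM array for 8. In iCM-Ex, replicate 2 was the highest for 6 genes, while replicate 1 was the lowest for 4 and the highest for 3. The cardiomyocyte markers, on the same scale, averaged 0.65, 0.51 and -0.26, then -0.33, -0.96 and 1.01, then -0.29, 0.01 and -0.34. The same arrays were thus high for both lists: saline replicates 1 and 2 and iCM replicate 3. Macrophage markers averaged 9.61, 11.34 and 13.04 on the saline arrays, 11.18, 11.53 and 9.92 in iCM and 12.90 to 13.18 in iCM-Ex. Saline replicate 1 and iCM replicate 3 had the lowest macrophage average of their group and the highest average of the channel genes. Saline replicate 2 and iCM replicates 1 and 2 had like macrophage averages, with channel averages of 0.68, -0.42 and -0.34. What part the tissue makeup of a piece has in the channel signals was not tested.

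**Figure D3:**
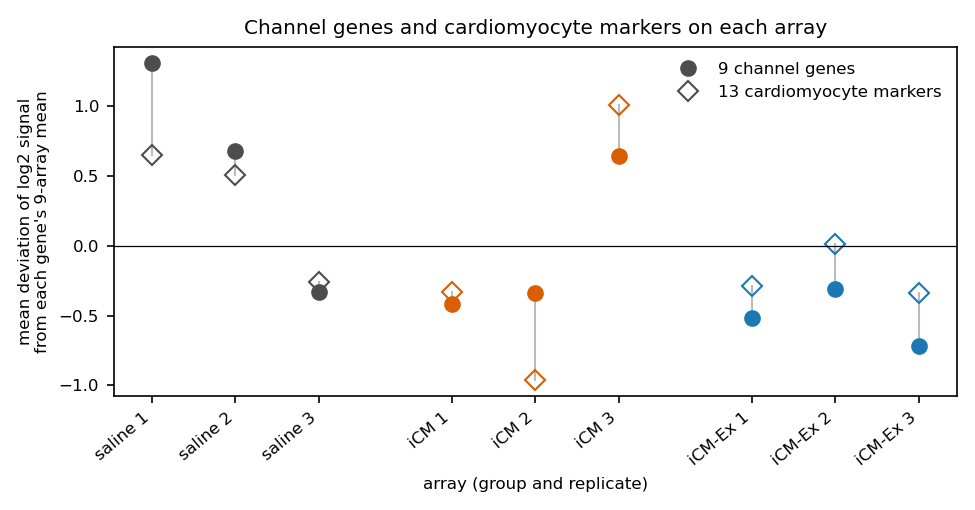
Mean deviation of log2 signal from each gene's own mean over the 9 arrays, for the 9 channel genes (filled circles) and 13 cardiomyocyte markers (open diamonds), by array. Saline replicates 1 and 2 and iCM replicate 3 are above 0 for both lists, and the channel genes lie below 0 on the other 6 arrays.

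Counted by sign alone, 7 of the 9 genes were lower in iCM than in saline, 8 in iCM-Ex than in saline and 8 in iCM-Ex than in iCM. Of all genes, 44.5%, 46.5% and 53.9% were lower. Kcnd3 and Kcna5 were the exceptions among the 9 genes in iCM against saline and Kcne1 in both iCM-Ex comparisons. The median difference of the 9 genes was -0.40, -0.93 and -0.37, against 0.08, 0.04 and -0.04 over all genes. The values -0.40 and -0.93 were those of Kcne1 and Kcnj2, whose signals lay around the negative controls and carry little information on size. With only the 6 of these genes above the median signal of all genes, the medians were -0.65, -1.39 and -0.42. That filter used the mean over all 9 arrays, so a gene could pass through the group where it was high. Kcnq1, Kcnj3 and Kcna5 passed it with iCM-Ex means of 5.40, 5.53 and 5.32, near the negative controls. These medians too carry little information on size. Of the 13 cardiomyocyte markers, 12, 8 and 6 were lower in the same comparisons, with median differences of -0.11, -0.11 and 0.05, and limma called 0 of them in each. At an unadjusted p under 0.05, 2, 3 and 3 of the 13 passed. Some of these markers lay near 19.93, the highest value of all, such as Mb at 19.83 to 19.93 and Myl2 at 19.05 to 19.81. Such signals have little room to rise and carry little information on size, which also limits the centring on these markers. Between iCM-Ex and saline, the sarcomere gene Myom1 had a difference of -2.80 (limma adjusted p = 0.118) and the calcium release channel gene Ryr2 one of -2.61 (adjusted p = 0.242). Others lay on the opposite side, with differences of 1.17 for Tnni3, 1.03 for Myl3, 0.77 for Cox6a2 and 0.29 for Myl2 (adjusted p of 0.571 to 0.707), and the iCM-Ex arrays of Tnni3 and Myl2 lay above all saline arrays. When each array was centred on these markers, the medians of the 9 genes were -0.01, -0.43 and -0.26, while the median of all genes moved up by 0.39, 0.51 and 0.11.

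The genes nearest in profile were sought for the 3 channel genes with the highest mean signal, by the root mean square (RMS) difference of log2 profiles over 9 arrays among 11038 genes. For Kcnh2, whose own RMS deviation was 1.31, these were the sarcomere gene Myom1 at 0.32, Cmya5, which encodes a muscle protein of the Z-disc region, at 0.36, and the potassium-chloride cotransporter gene Slc12a7 at 0.38. Kcna5, with an own deviation of 0.84, was nearest to Prune2 at 0.35, the sodium-potassium-chloride cotransporter gene Slc12a2 at 0.35 and Tfdp2 at 0.36. Kcnip2, with an own deviation of 1.30, had no match as close: Phyh and the mitochondrial genes Pdhb and Ndufa10 were at 0.67, 0.67 and 0.68. These profiles share the same 9 pieces of tissue, and the distances are a description.

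Among related genes, all calls by the pairwise tests were in iCM against saline. In that comparison limma called 1.34% of all genes higher and 2.33% lower, and 2 of 14 measured sodium channel and pacemaker genes rose and 0 fell. Scn8a, a pore-forming sodium channel best known from neurons, read 4.39, 5.42 and 4.36 in saline, 6.93, 6.69 and 6.08 in iCM and 6.64, 5.87 and 6.03 in iCM-Ex. All saline arrays lay below all treated arrays; iCM was 1.84 higher than saline (SE 0.38, limma adjusted p = 0.0305) and iCM-Ex 1.46 higher (adjusted p = 0.12), but the saline mean of 4.72 lay below the negative controls. The 8 nerve and glia markers averaged 4.06 to 4.37 on saline arrays, 4.50 to 4.69 on iCM arrays and 4.48 to 5.07 on iCM-Ex arrays. Their average was thus lowest in saline, at levels around or below the negative controls. In each treated group 6 of the 8 were higher than in saline and 2 lower, such as Prph with means of 4.63, 4.10 and 4.14. Limma called 0 of the 8 in each comparison, with 1, 2 and 1 at an unadjusted p under 0.05, and their part in the Scn8a signal was not tested.

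Scn4b, a sodium channel beta subunit, read 6.57, 6.05 and 6.93 in saline, 7.87, 8.17 and 9.52 in iCM and 7.11, 7.69 and 7.03 in iCM-Ex. It rose by 2.0 in iCM (SE 0.44, limma adjusted p = 0.0372), where no array overlapped saline. The iCM-Ex arrays also lay above all saline arrays, at a difference of 0.76 (adjusted p = 0.453). Against iCM, the iCM-Ex difference was -1.24 (adjusted p = 0.213). Hcn4, a pacemaker channel gene, had an iCM-Ex minus iCM difference of -1.06 (adjusted p = 0.0958) but lay below the negative controls on all 9 arrays. Fgf13, of the same list, was lower than saline by -1.2 in iCM and -1.32 in iCM-Ex (limma adjusted p of 0.24 and 0.279). It lay below the negative controls on 7 of the 9 arrays. Neither iCM-Ex comparison called any of the 14 genes, with 2 at an unadjusted p under 0.05 against saline and 3 against iCM.

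Of 29 other potassium channel pore genes, 0 rose and 1 fell in iCM against saline. This was Kcnk6, a two-pore-domain channel gene, which read 6.60, 7.60 and 7.54 in saline, 6.0, 5.68 and 5.44 in iCM and 6.02, 6.05 and 5.25 in iCM-Ex. As for Kcnq1, all saline arrays lay above all treated ones. The iCM difference was -1.54 (SE 0.36, limma adjusted p = 0.0452) and the iCM-Ex difference -1.47 (adjusted p = 0.105). In iCM-Ex against saline the calcium-activated channel gene Kcnn2 had a difference of -1.83 (adjusted p = 0.206), with saline replicate 1 alone at 8.38 and the other saline arrays at 5.47 and 5.95. Its iCM-Ex mean of 4.77 lay below the negative controls of that group. Kcnj8, a pore of ATP-sensitive channels, was 1.14 higher in iCM-Ex than in iCM (adjusted p = 0.203), and Kcna4, at -0.98 (adjusted p = 0.161), lay below the negative controls on all arrays. In each iCM-Ex comparison limma called 0 of the 29, and 2 had an unadjusted p under 0.05. The median differences of these 29 genes were 0.17, 0.02 and -0.08 in iCM against saline, iCM-Ex against saline and iCM-Ex against iCM.

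Of 18 other accessory genes, limma called 0 in each comparison, and 3, 4 and 3 had an unadjusted p under 0.05. Abcc9, the sulfonylurea receptor of cardiac and vascular ATP-sensitive channels, read 13.65, 13.79 and 12.55 in saline, 11.57, 11.71 and 13.93 in iCM and 10.05, 11.67 and 10.34 in iCM-Ex. It was lower on every iCM-Ex array than in saline, with a difference of -2.64 (limma adjusted p = 0.11), and iCM replicate 3 was again the high iCM array. Abcc8, the other sulfonylurea receptor, had a difference of -1.55 (adjusted p = 0.183), with 2 iCM-Ex arrays below their negative controls. Other named genes were Kcne2 at 0.95 and Kcnmb1 at -0.98 in iCM against saline, with adjusted p of 0.1 and 0.186, and Kcnab2 at 1.5 in iCM-Ex against iCM, with an adjusted p of 0.238. Kcne2 lay below the negative controls on 8 arrays, and the iCM mean of Kcnab2, 4.92, was below those of its group.

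Of 15 transcription factors known to act on channel genes or on heart muscle identity, 2 fell and 0 rose in iCM against saline. Gata4, a cardiac lineage factor, read 12.02, 11.70 and 11.23 in saline, 10.29, 7.94 and 9.59 in iCM and 9.38, 10.15 and 9.36 in iCM-Ex. It fell by 2.38 in iCM (SE 0.54, limma adjusted p = 0.0408) and was at -2.02 in iCM-Ex (adjusted p = 0.124), with saline above every treated array. Mef2a, a muscle factor, read 15.81, 14.82 and 14.66, then 13.83, 11.91 and 13.35, then 13.63, 13.70 and 13.26. It fell by 2.07 in iCM (SE 0.49, adjusted p = 0.0475) and was at -1.57 in iCM-Ex (adjusted p = 0.173).

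Klf15, a Krüppel-like factor known to drive Kcnip2 expression in a daily rhythm, read 5.85, 6.30 and 5.36 in saline, 6.26, 7.30 and 7.31 in iCM and 6.19, 5.45 and 5.18 in iCM-Ex. The iCM-Ex arrays lay below the iCM arrays, at a difference of -1.35 (limma adjusted p = 0.146). Tbx20 differed by 3.27 between iCM-Ex and iCM (adjusted p = 0.201), with the iCM arrays spread from 7.98 to 13.55. In both iCM-Ex comparisons limma called 0 of the 15 factors, and 2 and 3 had an unadjusted p under 0.05. The 5 related genes called in iCM against saline kept their sign under all 18 other settings, but their calls held under 8 for Scn8a, 6 for Scn4b, 5 for Kcnk6, 4 for Gata4 and 3 for Mef2a.

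**Figure D4:**
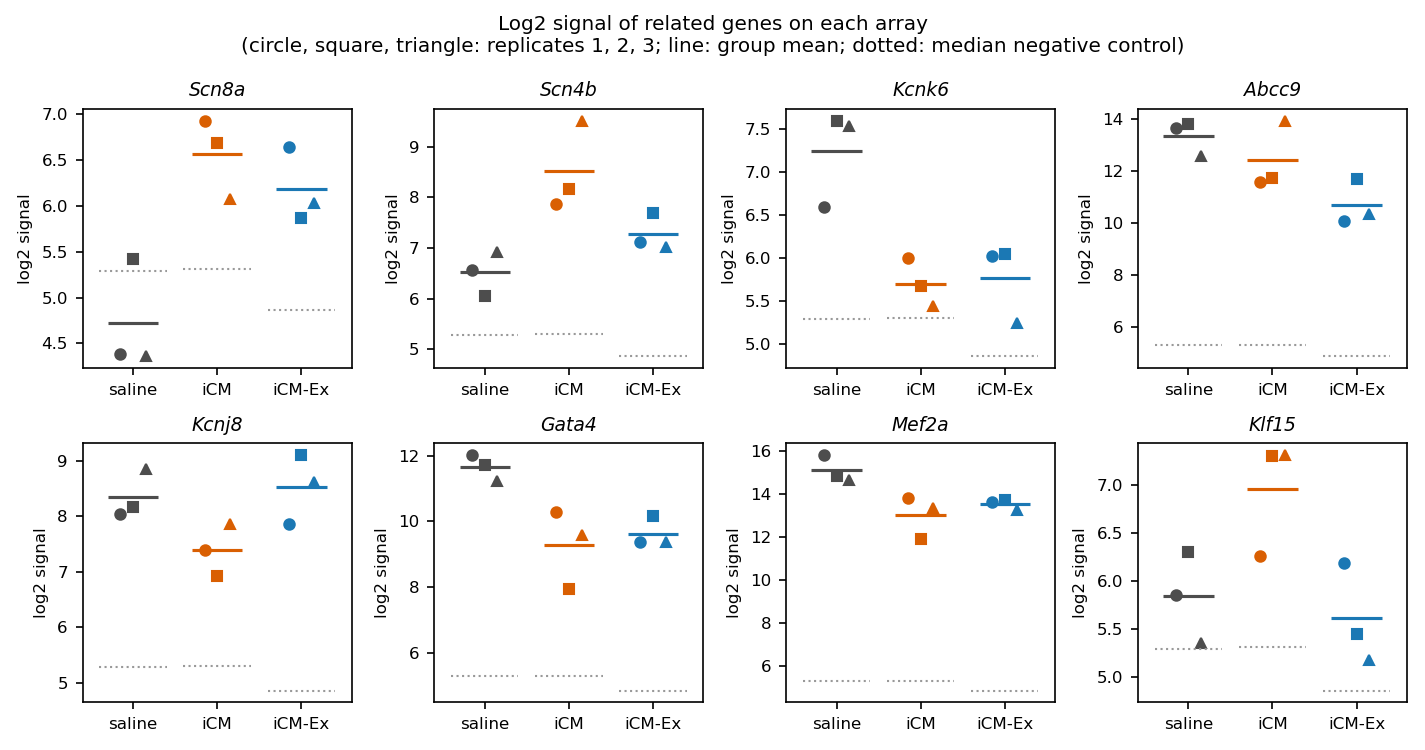
Log2 signal of 8 related genes on each array, drawn as for the channel genes. Saline arrays of Scn8a lie below, and those of Kcnk6, Gata4 and Mef2a above, all treated arrays, and Scn4b is highest in iCM.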

How the data were processed

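Total RNA of 9 peri-infarct samples, 3 biological replicates in each of 3 groups, was hybridised to Clariom S arrays, with 5.5 µg of labelled cDNA, per the labels' protocols. The authors deposited log2 signals; per the submitters' processing notes these came from Affymetrix Expression Console, and neither its version nor its background and normalisation methods are given in the sources. That the scale is log2 follows from the range of values, 2.25 to 19.93. Of 28846 rows, 6640 were controls and 19572 had 1 gene symbol; for 55 genes with several rows the brightest was kept, leaving 19505 genes. Without further normalisation, limma 3.58.1 in R 4.3.3 fitted group means on all 9 arrays (two-sided, Benjamini-Hochberg over all genes within each contrast), with 4.23 prior and 6 residual degrees of freedom, and was tested on simulated data. The number of arrays limits precision, and an exact permutation of 3 against 3 cannot go below 0.1.

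The 9 genes and all lists were chosen with earlier results of these data known. All 9 genes are named. Of each related list and comparison, genes past the threshold are named, or else the 2 with the smallest p. Alternatives changed the normalisation, gene filter, rows, samples, block, moderation, scaling and covariate.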

Additional observations from a re-analysis of the deposited data

How the results depend on the processing

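Results were recomputed under 18 other settings (17 for the F test, which has no version with only the compared groups). In iCM against saline, 1 of the 9 genes (Kcnq1) was called instead of 0 with only genes above the median signal, with trend and robust moderation, and without iCM replicate 3, at limma adjusted p of 0.0426, 0.0468 and 0.0422; leaving out single arrays gave 0 to 1. Both iCM-Ex comparisons called 0 under all 18 (lowest adjusted p 0.0534 and 0.0593). The F test called 0 instead of 1 after quantile normalisation (Kcnq1 adjusted p = 0.0736), centring on cardiomyocyte markers (0.581), with control separation as covariate (0.0993), and without the 3 arrays with other tissue (0.29); leaving out single arrays gave 0 to 1 and adjusted p of 0.0464 to 0.129.

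With single arrays left out, the median difference of the 9 genes ran from -1.03 to -0.38 for iCM against saline, from -1.64 to -0.79 for iCM-Ex against saline and from -0.59 to -0.13 between the treated groups; the lowest values of both comparisons with saline came without saline replicate 3. Without the 3 arrays with other tissue, which leaves iCM replicate 3 as the only iCM array and assumes that it varies like the other groups, it reversed to 0.23 for iCM against saline and was -1.03 for iCM-Ex against iCM. Single genes that changed sign, none of them called, were in iCM against saline Kcnh2 0.27, Kcnd2 0.21, Kcnj3 0.48 and Kcnip2 0.23 without those arrays, Kcnd2 0.11 and Kcnip2 0.04 with centring, and Kcnd2 0.11 and Kcna5 -0.57 with the covariate. With centring, Kcnd3 was 0.28 in iCM-Ex against saline, and with the covariate Kcnip2 was 0.80 in iCM-Ex against iCM. Leaving out single arrays gave ranges across 0 for iCM against saline in Kcnd2 (-0.53 to 0.10), Kcnd3 (-0.02 to 0.45), Kcna5 (-0.23 to 0.54) and Kcnip2 (-1.62 to 0.70), for iCM-Ex against saline in Kcnd3 (-0.54 to 0.11), Kcnip2 (-2.08 to 0.24) and Kcne1 (-0.14 to 0.57), and for iCM-Ex against iCM in Kcnq1 (-0.50 to 0.07), Kcnd2 (-0.71 to 0.17), Kcnj3 (-0.59 to 0.72) and Kcnip2 (-0.97 to 0.04). The causes were not tested.

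Over all genes, 716, 68 and 208 calls in the 3 comparisons and 647 by the F test ranged over 6 to 860, 0 to 271, 0 to 401 and 0 to 791. Centring on cardiomyocyte markers gave 211 higher and 122 lower, 262 and 9, and 278 and 48, against 262 and 454, 43 and 25, and 155 and 53. Same-numbered arrays did not deviate together over all genes (r -0.257 to 0.068 over 9 pairs, against -0.156 to 0.249 over 18 pairs of different number). These values show no pairing by number, but with 3 arrays a group they cannot exclude one. With the replicate block the F test called 0 of the 9 genes (Kcnq1 adjusted p = 0.0985), and all-gene calls were 338, 0, 18 and 205. Arrays near the negative controls limit Kcne1, Kcnj2, Kcnd3, the treated values of Kcnq1 and Kcnj3 and the iCM-Ex values of Kcna5.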
